A study of Rattus norvegicus with 12 samples.

Results

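Oxidative phosphorylation is the last stage of cellular respiration, and the genes described here encode the nuclear part of its machinery. They are the 86 genes, of 14217 genes with a probe set of their own on the rat array, whose platform symbol began with Nduf followed by a, b, c, s or v, with Uqcr, with Cox and a number from 4 to 8, or with Atp5, or was Sdha, Sdhb, Sdhc or Sdhd. By role, 78 of the 86 encode subunits, 6 encode assembly factors of complex I, 1 encodes an inhibitor of the ATP synthase (Atp5if1) and 1 is annotated as a pseudogene (Cox6c-ps1). Complex I had 40 of these genes, complex II 4, complex III 7, complex IV 19 and complex V 16. Under this rule the gene names alone chose the members, although the rule was set with earlier results of these data known.

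Complexes I to IV form the respiratory chain of the inner mitochondrial membrane. NADH dehydrogenase (complex I) and succinate dehydrogenase (complex II) pass electrons to ubiquinone, the cytochrome bc1 complex (III) passes them to cytochrome c, and cytochrome c oxidase (IV) passes them to oxygen. Complexes I, III and IV pump protons across the membrane, and the ATP synthase (complex V) uses the returning protons to make ATP. Tumour cells often take up much glucose and make lactate even in oxygen, so that the state of the respiratory chain is a common question in transformed fibroblasts. The subunits encoded by mitochondrial DNA do not carry the names used here.

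RNA was profiled from F111, an established fibroblast line of the Fischer rat, in 2 states. A16 cells had been plated on plastic for 16 h. Tumor cells were recovered from tumours that arose in nude mice about 3 months after subcutaneous injection of F111 cells held in suspension, and the comparison asks what differs once the line has grown as a tumour. The labels give both kinds of cell one medium with one level of serum, whereas the methods describe tumour explants that were trypsinised and kept in richer serum until cells came out after about a week, so that time in culture, serum and passage through a mouse are part of the same contrast. Cells of the host mouse may have been among them.

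Biotin-labelled cRNA had been hybridised to Affymetrix rat expression arrays, on which a probe set is a group of short probes that reads 1 transcript. The 12 deposited records came from 6 arrays, 3 per group, each summarised by the algorithm RMA and again by PLIER. All values below are log2 RMA intensity and all differences are Tumor minus A16 on that scale, with a moderated standard error (SE) from limma. A gene with several probe sets was read from the brightest. Technical replicate 2 of each group was averaged with replicate 1, so that n = 2 replicates per group, and array values are listed for replicate 1, technical replicate 2 and replicate 2 in that order. Rose and fell are used for an adjusted p under 0.05 across 31042 probe sets, and the labels do not say whether replicates came from separate cultures or mice, so that each p measures only the spread between these samples.

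Several control readings of the arrays differed between A16 and Tumor. Spiked poly-A transcripts, which go in ahead of labelling, averaged 7.48 in A16 and 4.91 in Tumor arrays, where the bacterial Trp probe sets, for which no transcript is added, read 4.21. The 3′ probe set of beta-actin exceeded the 5′ probe set by 0.67 in A16 and by 2.30 in Tumor, and the same measure was -0.03 and 0.29 for Gapdh. For hexokinase it was 1.01 and 1.99, and spikes added at hybridisation averaged 9.70 in A16 and 10.76 in Tumor. Apart from Trp, no array of one group overlapped the other group in these measures. Labelling, RNA quality and hybridisation therefore cannot be told apart from group. Of 10 fibroblast markers, 4 fell, among them Col1a1 (-3.46 ± 0.20) and Thy1 (-1.95 ± 0.11), while the mesenchymal filament Vim stayed bright in both groups (14.29 and 14.19). Of 11 macrophage markers, 2 rose, namely Csf1r from 5.46 to 8.59 and Cd68 from 6.01 to 7.09, while the pan-leukocyte marker Ptprc read 5.13 and 5.06. The summed level of the macrophage list ran from 10.41 to 10.58 in A16 and from 10.78 to 10.84 in Tumor arrays. Of 9 epithelial markers 2 rose, with Krt8 going from 9.52 to 11.02 and Cdh1 from 4.93 to 5.87, and of 7 endothelial markers 2 rose, with Vwf going from 5.45 to 6.18 and Pecam1 from 5.83 to 6.35. The summed levels of both lists were higher on all Tumor arrays. They were 11.16 to 11.29 against 9.97 to 10.14 for epithelial and 8.35 to 8.56 against 8.10 to 8.25 for endothelial markers. Most of the epithelial sum was Krt8, and the median difference of the epithelial list was -0.09. By the same test 17.4% of all genes rose and 16.6% fell. The part of these differences in the results below was not tested.

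Respiratory chain genes were spread to both sides of zero and their differences were small. In Tumor cells 12 of the 86 members rose and 12 fell, and 62 did not pass the test. This is 27.9% of the members, beside 34% of all genes (17.4% higher and 16.6% lower). At 2-fold or more, 1 member rose (Cox7b2) and 0 fell by limma on RMA values, beside 5.45% and 5.44% of all genes. With no limit on the fold 17 members were higher and 16 lower at an unadjusted p under 0.05, for which the share of all genes was not counted. In either direction 10.9% of all genes passed at 2-fold. With PLIER values 1 member was at least 2-fold lower, the assembly factor Ndufaf3.

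The median difference of the members was -0.02, beside 0.03 for all genes, and their SD of 0.39 compares with 0.76 over all genes. Differences stayed under 0.5 in either direction for 71 of the 86 members, whereas 29.6% of all genes reached 0.5. The 3 Tumor arrays all lay above the 3 A16 arrays for 16 members and all below them for 28, with 42 members overlapping. Over all genes 28.6% lay above and 27.3% below, 55.9% in all. Read by arrays, more members lay below than above, whereas the numbers that passed the test were equal.

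**Figure D1:**
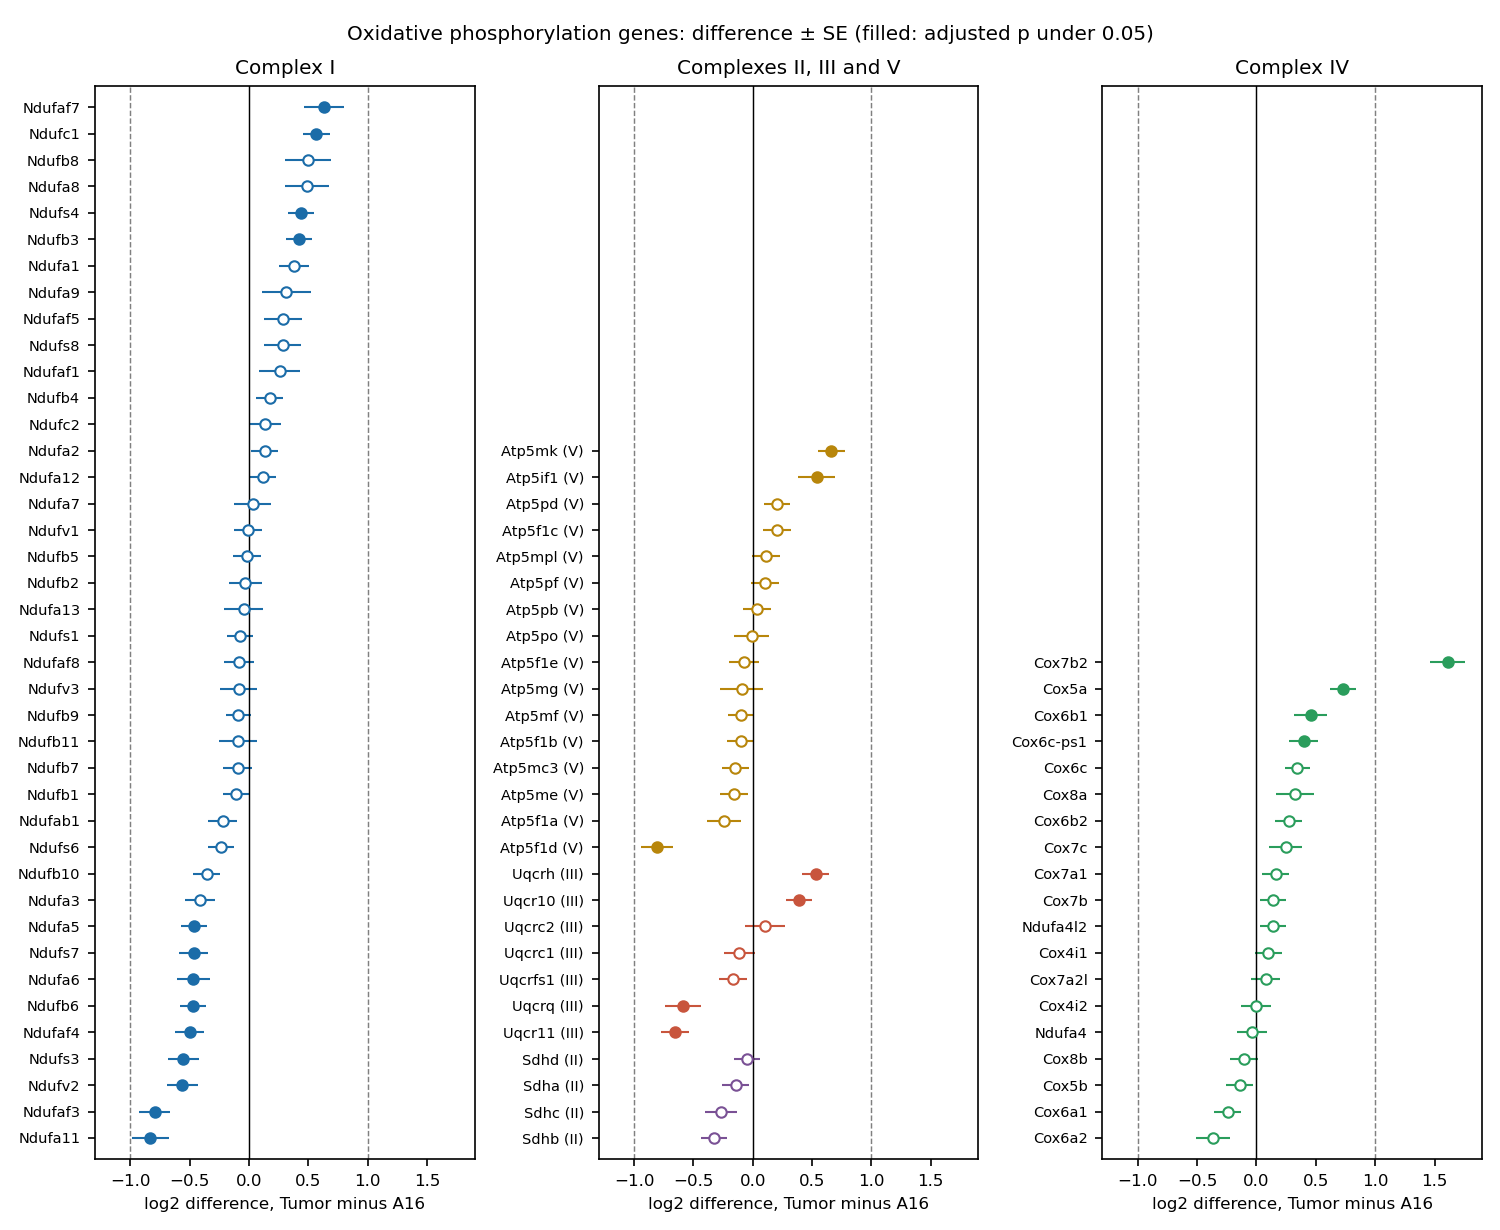
Each point is the log2 RMA difference, Tumor minus A16, of 1 gene with its moderated SE (n = 2 replicates per group), sorted within each complex, and filled points have an adjusted p under 0.05. Dashed lines mark 2-fold, which Cox7b2 alone crosses at 1.61, and the filled points of complex IV lie to the right of zero while complexes I, III and V have filled points on both sides.

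The A16 arrays differed among themselves over the members. Technical replicate 2 of A16 was the highest A16 array in 60 of 86 members (69.8%), whereas it was the highest in 41.5% of all genes. Replicate 2 of A16 was the lowest of its group in 60 members (69.8%), against 51.2% of all genes. The members' median deviation from their 6-array means was 0.11 on technical replicate 2 and -0.10 on replicate 2 of A16, a gap wider than any between the Tumor arrays, which ran from -0.04 to 0.01. With technical replicate 2 left out, 11 members rose and 10 fell (24.4% of members, beside 29.7% of all probe sets). With it as a replicate of its own, 17 rose and 20 fell (43.0%, beside 41.7%), so that the count over all probe sets moved the same way.

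**Figure D2:**
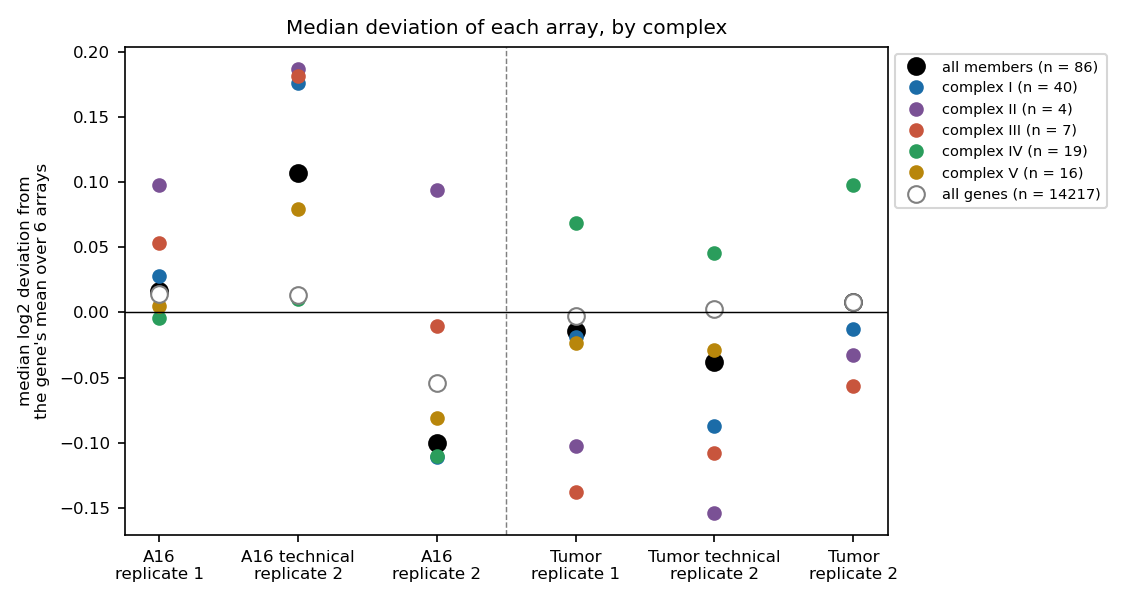
For each of the 6 arrays the points give the median log2 deviation of a group of genes from each gene's mean over all arrays, by complex and for all genes. Over all members A16 technical replicate 2 lies highest (0.11) and A16 replicate 2 lowest (-0.10), which single complexes need not follow, and complex IV is the one complex above zero on all 3 Tumor arrays.

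By complex, the 40 genes of complex I had 4 rises, 9 falls and a median of -0.06. None of the 4 genes of complex II passed in limma (median -0.21), with 1 lower at an unadjusted p under 0.05. Complex III had 2 rises and 2 falls among 7 genes (median -0.11), and complex V had 2 rises and 1 fall among 16 (median -0.04). Complex IV had 4 rises and 0 falls among 19 genes, with 1 lower at an unadjusted p under 0.05, and its median of 0.14 was the only positive one. Members of a complex are not replicates of a condition, so that the medians were not tested against each other. The 16 core subunits, which hold most of the redox centres and catalytic parts, had 0 rises and 4 falls in limma. At an unadjusted p under 0.05, 0 were higher and 5 lower, and 14 of the 16 differences were negative. Beside these counts and those by complex, 17.4% of all genes rose and 16.6% fell, and 6659 of 14217 genes had a negative difference. Among the 54 subunits classed as supernumerary, which mostly surround the core, 8 rose and 6 fell, and 27 differences were positive and 27 negative. In complex V only the subunits of the F1 head and central stalk were classed as core. Atp5mc3, Atp5pb and Atp5po therefore counted as supernumerary there.

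Cox7b2, an isoform of the small complex IV subunit Cox7b that is best known from testis, had the largest difference of all members. It read 9.62, 9.82 and 9.36 on the A16 arrays and 11.21, 11.17 and 11.11 on the Tumor arrays. The lowest Tumor array was above the highest A16 array by more than the whole range of either group. Cox7b2 had 1 probe set, and whether that reads the Cox7b2 transcript alone was not tested. The difference was 1.61 ± 0.15, or 3.05-fold (adjusted p = 0.000500, limma), and 1.53 with PLIER. It stayed between 1.43 and 1.79 under 11 alternative settings in limma and passed in all of them, whereas with the methods' t-test it did not pass after adjustment. The common subunit Cox7b read 12.77, 12.83 and 12.69 in A16 and 12.94, 12.79 and 12.90 in Tumor, which overlap, and its difference of 0.14 ± 0.11 did not pass (adjusted p = 0.416, limma). In the next sequences, given to set the pair side by side, are the 250 bases before the RefSeq start of each gene in the GRCr8 assembly, at chr14:37046831-37047080 for Cox7b2 and chrX:75148786-75149035 for Cox7b (both on the plus strand), which hold 46.8% and 40.4% G or C and no match to the motifs searched here, so that they carry no capitals.
Cox7b2: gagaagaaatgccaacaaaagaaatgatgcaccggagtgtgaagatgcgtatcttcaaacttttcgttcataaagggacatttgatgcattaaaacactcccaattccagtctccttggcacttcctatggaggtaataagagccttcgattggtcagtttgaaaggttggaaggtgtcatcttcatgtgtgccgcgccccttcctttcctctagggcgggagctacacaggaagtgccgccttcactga
Cox7b: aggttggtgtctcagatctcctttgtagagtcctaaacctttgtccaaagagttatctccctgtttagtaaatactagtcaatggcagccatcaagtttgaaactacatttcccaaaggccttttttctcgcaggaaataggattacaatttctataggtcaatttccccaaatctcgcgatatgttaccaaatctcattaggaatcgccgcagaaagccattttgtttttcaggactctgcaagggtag

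The other rises in complex IV were smaller. Cox5a, a subunit on the matrix side that binds Cox4, read 7.44, 7.52 and 7.45 in A16 and 8.12, 8.22 and 8.22 in Tumor. Its groups were clearly apart, at 0.73 ± 0.11 or 1.66-fold (adjusted p = 0.00309, limma). Its 1 probe set was dimmer than that of every other complex IV subunit not classed as an isoform. Whether it reads the main transcript was not tested. Cox6b1, which joins the oxidase monomers on the side of cytochrome c, went from 12.39, 12.43 and 12.12 to 12.69, 12.66 and 12.77, a rise of 0.46 ± 0.14 that passed narrowly (adjusted p = 0.0450, limma) and not with PLIER. The pseudogene Cox6c-ps1 also passed narrowly (0.40 ± 0.12, adjusted p = 0.0480, limma) although its arrays overlapped between the groups. The probe set of Cox6c-ps1 averaged 6.52 in A16 and 6.92 in Tumor, and whether it reads the parent gene Cox6c was not tested. Cox6c itself read 13.31, 13.27 and 13.26 in A16 and 13.63, 13.62 and 13.61 in Tumor. Every Tumor array was higher, with an adjusted p of 0.0516 (0.34 ± 0.11, limma).

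Complex IV is the complex with the most tissue isoforms, and Cox7b2 was the 1 isoform gene of 8 that passed. The subunit Cox4i1 differed by 0.10 ± 0.11 and its lung and hypoxia isoform Cox4i2 by 0.00 ± 0.12. Cox6a1 was lower in every Tumor array, at 12.43, 12.51 and 12.61 against 12.72, 12.81 and 12.80, without passing (-0.24 ± 0.11, adjusted p = 0.165, limma). The muscle isoforms Cox6a2, Cox7a1 and Cox8b differed by -0.37 ± 0.14, 0.16 ± 0.12 and -0.11 ± 0.12, and the testis isoform Cox6b2 by 0.27 ± 0.11. All 5 of these other isoforms, Cox4i2 among them, had group means between 4.98 and 6.02, low on the scale of these arrays, where a change can be understated.

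Ndufa4, once counted with complex I and now placed in complex IV, differed by -0.04 ± 0.12. Its hypoxia-linked paralogue Ndufa4l2 read 6.16, 6.10 and 6.05 in A16 and 6.22, 6.21 and 6.23 in Tumor, higher on every Tumor array by a small margin (0.14 ± 0.11, adjusted p = 0.411, limma). PLIER gave 0.89 for the same probe set with an adjusted p of 0.0157. Cox6b2 also passed with PLIER (0.63) and Cox8b passed downward (-0.46), whereas Cox6a2 turned from -0.37 to 0.17. Dim probe sets are where both summaries parted most, and the complex IV median was 0.31 with PLIER. Of 20 skeletal and heart muscle markers, which include Cox6a2, Cox7a1 and Cox8b, 3 rose, Pygm (0.69 ± 0.13), the muscle creatine kinase Ckm (0.49 ± 0.13) and Myl1 (0.41 ± 0.11), and 1 fell, the skeletal actin Acta1 (-0.40 ± 0.11). Their summed level ran from 11.92 to 12.12 in A16 and from 12.27 to 12.51 in Tumor arrays, and most of it was the myosin Myh1, which read 11.69 and 12.09 and did not pass. Of 11 brown fat markers 2 rose, Prdm16 (0.92 ± 0.11) and Fabp4 (0.61 ± 0.11), while the defining marker Ucp1 read 5.01 and 5.07. The part of these markers in the isoform values was not tested.

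**Figure D3:**
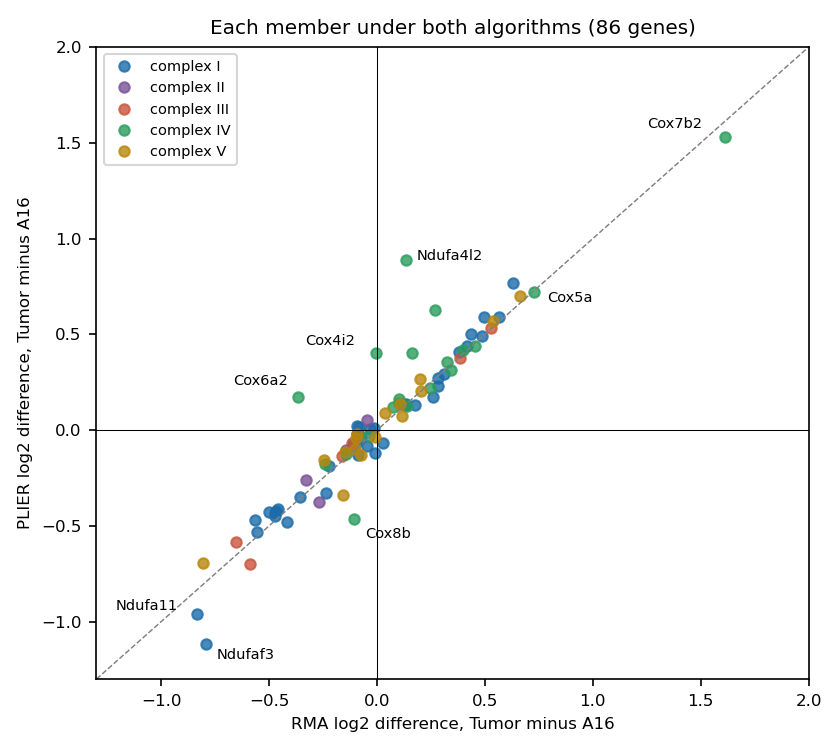
Each of the 86 genes is placed by its log2 difference, Tumor minus A16, with RMA (horizontal axis) and with PLIER (vertical axis), and the dashed line marks equal values. Most genes lie near that line (78 of 86 have the same sign), and those that leave it most, such as Ndufa4l2 (0.14 and 0.89), belong to complex IV and are dim.

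The 2 summaries of the same arrays gave like values elsewhere. Across the 86 genes, which are not independent replicates, Pearson's r was 0.943 and Spearman's rho was 0.942. All 24 members that passed with RMA had the same sign with PLIER, and 17 of them passed there too.

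In complex I, 3 of 6 core subunits, 4 of 28 supernumerary subunits and 2 of 6 assembly factors fell. In the same order 0, 3 and 1 rose, beside 16.6% lower and 17.4% higher over all genes. Ndufa11, a membrane-arm subunit that links complex I to complex III in supercomplexes, fell the most of all members. Its arrays read 11.19, 11.52 and 11.06 in A16 and 10.41, 10.07 and 10.51 in Tumor, which are far apart although technical replicate 2 was the outermost array on both sides. The fall was -0.83 ± 0.15, or 1.78-fold lower (adjusted p = 0.00761, limma). Ndufv2, a core subunit with an iron-sulphur cluster, read 11.56, 11.58 and 11.71 in A16 and 11.25, 11.13 and 10.96 in Tumor. It fell by 0.56 on the log2 scale (SE 0.13, adjusted p = 0.0179, limma) with PLIER short of the threshold (adjusted p = 0.0668). The core subunits Ndufs3 (-0.56 ± 0.13) and Ndufs7 (-0.47 ± 0.12) of the part that hands electrons to ubiquinone fell as well, so that 3 of the 6 measured core subunits of complex I fell and 0 rose in limma. At an unadjusted p under 0.05 these counts were also 3 and 0. Of the 3, only Ndufs3 passed with PLIER, where Ndufs7 had an adjusted p of 0.0545, and without A16 replicate 1, or leaving technical replicate 2 out, Ndufs7 did not pass either. Of the other 3, Ndufs1 differed by -0.08 ± 0.11, Ndufv1 by -0.01 ± 0.12 and Ndufs8 by 0.28 ± 0.16.

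Other falls in complex I were those of the supernumerary subunits Ndufb6 (-0.47 ± 0.11), Ndufa6 (-0.47 ± 0.14) and Ndufa5 (-0.46 ± 0.11). Ndufa5 was among the most even, at 11.10, 11.10 and 11.09 in A16 and 10.64, 10.55 and 10.68 in Tumor. In the opposite direction Ndufc1, a small membrane-arm subunit, read 10.57, 10.56 and 10.50 in A16 and 11.20, 11.15 and 11.02 in Tumor. Its rise of 0.57 ± 0.12 (adjusted p = 0.0115, limma) was the largest of a complex I subunit. Ndufs4, a subunit needed for a stable complex and known from Leigh syndrome, went from 10.27, 10.21 and 10.21 to 10.70, 10.66 and 10.64. That rise (0.43 ± 0.11, adjusted p = 0.0233, limma) and that of Ndufb3 (0.42 ± 0.11) had Tumor arrays above all A16 arrays. By series, the 11 Ndufb genes had 1 rise and 1 fall, the 6 Ndufs genes 1 rise and 2 falls, and the 12 Ndufa genes of complex I 3 falls.

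Assembly factors, which help build complex I and leave before it works, also split. Ndufaf3, which acts with Ndufaf4 at an early step of assembly, read 9.94, 10.19 and 9.88 in A16 and 9.12, 9.04 and 9.28 in Tumor. It fell by 0.79 on the log2 scale (SE 0.13, adjusted p = 0.00481, limma), and PLIER gave -1.12. Its partner Ndufaf4 read 10.50, 10.58 and 10.34 in A16 and 10.03, 9.89 and 9.91 in Tumor, also apart (-0.50 ± 0.12, adjusted p = 0.0214, limma). Ndufaf7, a methyltransferase of the mitochondrial matrix, read 8.45, 8.59 and 8.13 in A16 and 9.09, 9.06 and 8.83 in Tumor. It rose by 0.63 ± 0.17 (adjusted p = 0.0302, limma), and its dimmer probe set gave 0.85 ± 0.15. Ndufaf1, Ndufaf5 and Ndufaf8 had overlapping arrays and differences of 0.26 ± 0.17, 0.28 ± 0.16 and -0.09 ± 0.13.

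**Figure D4:**
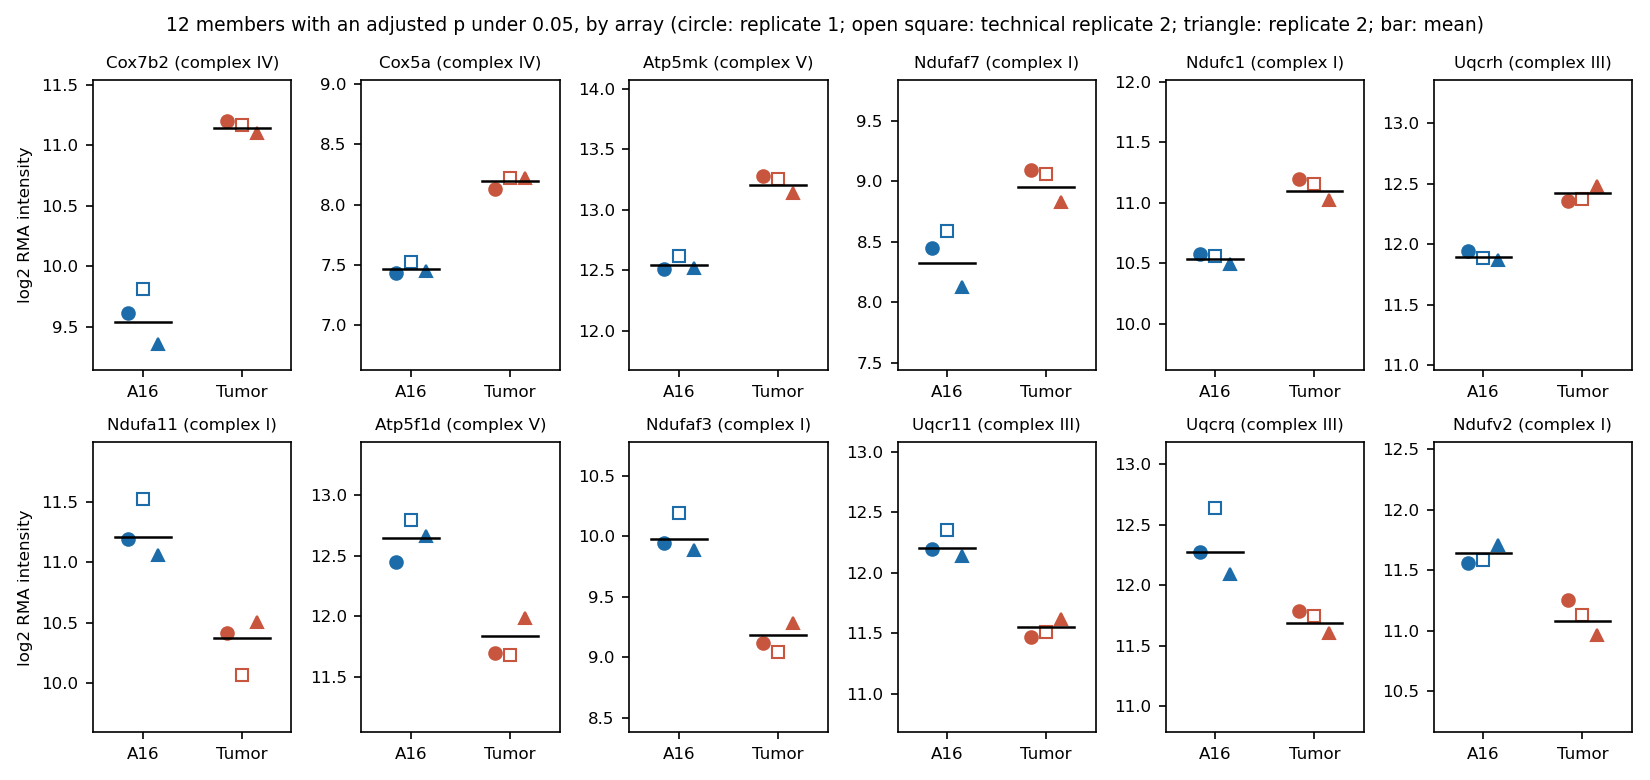
Log2 RMA intensity of 12 members on each of the 6 arrays, with 6 that rose above and 6 that fell below; circles are replicate 1, open squares technical replicate 2, triangles replicate 2, and bars the mean of the 2 replicates. In every panel the 3 Tumor arrays lie on one side of the 3 A16 arrays, as for Cox7b2 (9.36 to 9.82 in A16 and 11.11 to 11.21 in Tumor), and the axes cover equal spans but different levels.

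Succinate dehydrogenase, which also serves the citric acid cycle, had no subunit that passed. The iron-sulphur subunit Sdhb came closest, at 12.03, 12.14 and 12.09 in A16 and 11.84, 11.74 and 11.73 in Tumor. These groups do not overlap, and the difference was -0.33 ± 0.11 (adjusted p = 0.0624, limma). The membrane anchor Sdhc was also lower on each Tumor array, at 11.19, 11.07 and 11.33 against 11.52, 11.68 and 11.39 (-0.27 ± 0.13, adjusted p = 0.192, limma). The flavoprotein Sdha (-0.15 ± 0.12) and the other anchor Sdhd (-0.05 ± 0.11) overlapped between the groups.

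In complex III the 4 genes that passed were all small supernumerary subunits. Uqcr11 read 12.19, 12.35 and 12.14 in A16 and 11.47, 11.51 and 11.62 in Tumor, and fell by 0.66 on the log2 scale (SE 0.12, adjusted p = 0.00697, limma). Uqcrq, which lies next to cytochrome b, read 12.28, 12.64 and 12.10 in A16 and 11.79, 11.75 and 11.61 in Tumor (-0.59 ± 0.15, adjusted p = 0.0286, limma). The hinge protein Uqcrh, which helps cytochrome c dock, went the other way, from 11.95, 11.89 and 11.87 to 12.36, 12.38 and 12.48 (0.53 ± 0.11, adjusted p = 0.0129, limma). Uqcr10 rose from 12.75, 12.73 and 12.73 to 13.17, 13.16 and 13.08, by 0.39 ± 0.11 (adjusted p = 0.0379, limma). The A16 and Tumor arrays did not overlap in any of these 4 genes. The Rieske iron-sulphur protein Uqcrfs1, the 1 catalytic subunit among the members, was lower on all Tumor arrays at 12.16, 12.19 and 12.24 against 12.39, 12.52 and 12.29 without passing (-0.16 ± 0.12, adjusted p = 0.360, limma), and the large subunits Uqcrc1 and Uqcrc2 differed by -0.11 ± 0.13 and 0.10 ± 0.17. A dimmer probe set of Uqcrc2 was lower on all Tumor arrays without passing (-0.42 ± 0.14, adjusted p = 0.0729, limma).

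In the ATP synthase, Atp5f1d, the delta subunit of the central stalk, read 12.45, 12.80 and 12.66 in A16 and 11.70, 11.68 and 11.98 in Tumor. It fell by 0.81 on the log2 scale (SE 0.14, adjusted p = 0.00510, limma), or 1.75-fold. The other subunits of the F1 head and stalk did not follow it past the threshold, with -0.25 ± 0.14 for the alpha subunit Atp5f1a, -0.10 ± 0.11 for the catalytic beta subunit Atp5f1b, 0.20 ± 0.12 for the gamma subunit Atp5f1c and -0.07 ± 0.12 for the epsilon subunit Atp5f1e. Atp5mk, a small membrane subunit found where synthase dimers form, read 12.51, 12.62 and 12.52 in A16 and 13.28, 13.26 and 13.14 in Tumor, a rise of 0.66 ± 0.11 (adjusted p = 0.00549, limma). Atp5mc3, the 1 proton-carrying subunit c gene with a probe set of its own, differed by -0.15 ± 0.11.

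Atp5if1, the inhibitor that stops the synthase from running backwards and consuming ATP, read 11.75, 11.71 and 11.37 in A16 and 12.19, 12.12 and 12.01 in Tumor. The rise of 0.54 ± 0.15 (adjusted p = 0.0379, limma) kept the groups apart, and it was lost without A16 replicate 2, without Tumor replicate 1 or without Tumor replicate 2 (adjusted p = 0.0863, 0.200 and 0.102). A dimmer probe set of Atp5if1 gave 1.16 ± 0.14 (adjusted p = 0.00149, limma) and another gave 0.40 ± 0.18. Among the 9 members with more than 1 probe set, dimmer ones passed where the brightest did not for Ndufv3 (-0.68 ± 0.11 against -0.09 ± 0.16) and Ndufa7 (-0.47 ± 0.12 against 0.03 ± 0.15). A further 7 probe sets had several symbols, at least 1 of which bore such a name, and stood for no gene here. Their differences ran from -0.63 to 0.13, with 2 falls.

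Nuclear genes of the respiratory chain are known to share a few promoter motifs, and the data were set against them. A start-site window of 300 bases (250 before and 50 after, RefSeq, GRCr8) was found for 78 of the 86 members. Searched on both strands, the palindrome of nuclear respiratory factor 1 (NRF1) occurred in 5 of the 78 in its strict form (6.41%), which is the run of capitals in the Ndufaf4 promoter printed below, and in 0.932% of all 27457 windows. With any base in place of its T it occurred in 15 (19.2%), which include those 5, against 4.71%. The ETS motif CCGGAAG, bound by the nuclear respiratory factor 2 protein Gabpa among others, occurred in 22 (28.2%), against 9.22%, and the YY1 motif AAGATGGC in 17 (21.8%), against 3.44%. At least 1 of them was found in 44 members (56.4%) and in 15.5% of all windows. The windows of the members held more G and C, with a median of 56% against 52.3%, and its part in these shares was not tested. All 27457 windows include genes not measured on the array, so that these shares come from unlike sets of genes.

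Of the 15 members with the NRF1 motif, 0 rose and 3 fell in limma (median -0.11), with the same counts at an unadjusted p under 0.05. Of the 22 with CCGGAAG, 2 rose and 2 fell (median -0.05), and of the 17 with AAGATGGC, 1 rose and 2 fell (median -0.09). Over all genes 17.4% rose and 16.6% fell, and no test of direction was made on these counts. The promoters of 4 members are printed to show where the motifs lie, of Ndufa11 and Ndufaf4, which fell and hold the strict NRF1 motif, and of the complex III pair Uqcrh and Uqcrq, which went opposite ways and both hold CCGGAAG. Each is the 250 bases before the RefSeq start in GRCr8, 5′ to 3′ on the strand of the gene, with matches to the 3 motifs in capitals (overlapping matches run together, and CTTCCGG is CCGGAAG on the other strand). The regions are chr9:1637364-1637613 (plus strand), chr5:43401545-43401794 (plus strand), chr5:134790883-134791132 (minus strand) and chr10:38089979-38090228 (minus strand).
Ndufa11: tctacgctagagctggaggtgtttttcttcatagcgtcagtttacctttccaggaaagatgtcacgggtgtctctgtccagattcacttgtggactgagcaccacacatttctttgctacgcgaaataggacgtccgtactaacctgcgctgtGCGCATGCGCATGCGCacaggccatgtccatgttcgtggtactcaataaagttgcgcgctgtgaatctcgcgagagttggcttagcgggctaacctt
Ndufaf4: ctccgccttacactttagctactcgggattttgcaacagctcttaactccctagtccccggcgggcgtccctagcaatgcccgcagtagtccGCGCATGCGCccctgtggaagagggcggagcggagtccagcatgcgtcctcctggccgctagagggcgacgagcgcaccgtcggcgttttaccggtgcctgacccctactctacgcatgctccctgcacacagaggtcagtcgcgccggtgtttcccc
Uqcrh: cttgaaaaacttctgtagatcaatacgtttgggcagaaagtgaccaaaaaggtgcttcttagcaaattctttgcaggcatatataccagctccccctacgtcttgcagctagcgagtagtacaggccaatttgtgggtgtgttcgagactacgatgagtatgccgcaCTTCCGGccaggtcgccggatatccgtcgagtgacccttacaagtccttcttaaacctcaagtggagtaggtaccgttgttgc
Uqcrq: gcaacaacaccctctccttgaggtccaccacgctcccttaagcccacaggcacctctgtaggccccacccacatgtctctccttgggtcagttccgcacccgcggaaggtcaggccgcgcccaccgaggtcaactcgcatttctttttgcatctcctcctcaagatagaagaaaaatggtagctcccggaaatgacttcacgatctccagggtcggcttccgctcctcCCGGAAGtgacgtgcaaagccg

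By position, 4 of the 10 members on chromosome 7 fell (Atp5f1d, Ndufs7, Ndufa6 and Uqcr11), beside 16.6% of all genes. The median of all genes on chromosome 7 was -0.04. The other chromosomes had at most 2 rises or 2 falls among their members. Atp5f1d and Ndufs7 lie within 5 measured genes of each other, and of the 10 measured genes around Atp5f1d, 4 fell, with a median of -0.38. Of the other members that passed, some went with their neighbours. The 10 measured genes around Ndufs4, which rose, had a median of 0.32 with 4 rises and 0 falls. Around Ndufaf7, which also rose, the median was 0.30 with 5 rises and 2 falls. For Uqcr11, which fell, it was -0.17 with 0 rises and 2 falls. Others went against their neighbours. Around Ndufv2, which fell, the 10 measured genes had a median of 0.21 with 3 rises, around Ndufaf4, which also fell, a median of 0.07 with 3 rises, and around Uqcrh, which rose, a median of -0.08 with 1 rise and 2 falls.

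Genes that work beside the complexes gave a mixed picture too. For the counts of these lists and those that follow, the share over all genes was 17.4% higher and 16.6% lower. Among 36 measured assembly factors outside the members, 5 rose and 4 fell (median 0.05), which includes the complex IV translation and assembly factor Cox14 (1.07 ± 0.20), the succinate dehydrogenase flavinylation factor Sdhaf2 (0.86 ± 0.14), and, downward, the iron-sulphur carrier Nubpl (-0.87 ± 0.14) and the complex I factor Ecsit (-0.62 ± 0.13). Of 15 electron carriers and coenzyme Q enzymes, 1 rose and 3 fell. The rise was that of Coq8a, an atypical kinase needed for coenzyme Q synthesis, from 6.44, 6.61 and 6.34 in A16 to 8.61, 8.68 and 8.50 in Tumor (2.14 ± 0.13, 4.40-fold, adjusted p = 8.44e-05, limma). The falls were those of Coq2 (-0.47 ± 0.11), Coq9 (-0.46 ± 0.12) and Coq5 (-0.42 ± 0.12), which take part in making the same quinone.

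Of 18 regulators of respiratory and mitochondrial gene transcription, 5 rose and 0 fell in limma, with 7 higher and 1 lower at an unadjusted p under 0.05 and a median of 0.21. The rises were those of Polg2 (0.71 ± 0.11) and Twnk (0.59 ± 0.12), which copy mitochondrial DNA, Tfb2m (0.66 ± 0.11), which starts its transcription, and Myc (0.60 ± 0.11) and Esrra (0.51 ± 0.13). Nrf1 (0.07 ± 0.11), Gabpa (0.19 ± 0.14) and Tfam (-0.14 ± 0.11) did not pass, and the coactivator Ppargc1a read 5.26 and 5.09.

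The citric acid cycle, which feeds electrons to the chain, had 3 rises and 7 falls among 16 genes (median -0.20). Falls included Ogdh (-0.60 ± 0.12) and Mdh2 (-0.58 ± 0.11), and the rises were in genes at the entry of pyruvate, Pc (0.70 ± 0.12), Pdha1 (0.60 ± 0.11) and Pdhx (0.40 ± 0.12). None of 19 carriers of the inner and outer membrane passed in limma, with 1 higher and 2 lower at an unadjusted p under 0.05. Of 10 mitochondrial genes and regulators known to respond to hypoxia, 4 rose and 2 fell. Egln3, an oxygen-sensing hydroxylase, rose by 3.59 ± 0.18 and Mxi1, an antagonist of Myc, by 1.46 ± 0.12, while Pdk1, which blocks pyruvate dehydrogenase, fell by 1.51 on the log2 scale (SE 0.11). By quantitative PCR the study reported Pdk1, like Egln3, higher in tumour cells than in A16. Cox4i2 and Ndufa4l2 belong to that list and are the 2 members described above. Of 13 genes of supercomplexes and cristae 2 rose and 2 fell, with Chchd6 at -1.01 ± 0.19, and of 9 genes of peroxide defence 2 rose and 1 fell, with Prdx5 at 1.30 ± 0.11, Nnt at 0.71 ± 0.13 and Gpx4 at -0.72 ± 0.11.

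**Figure D5:**
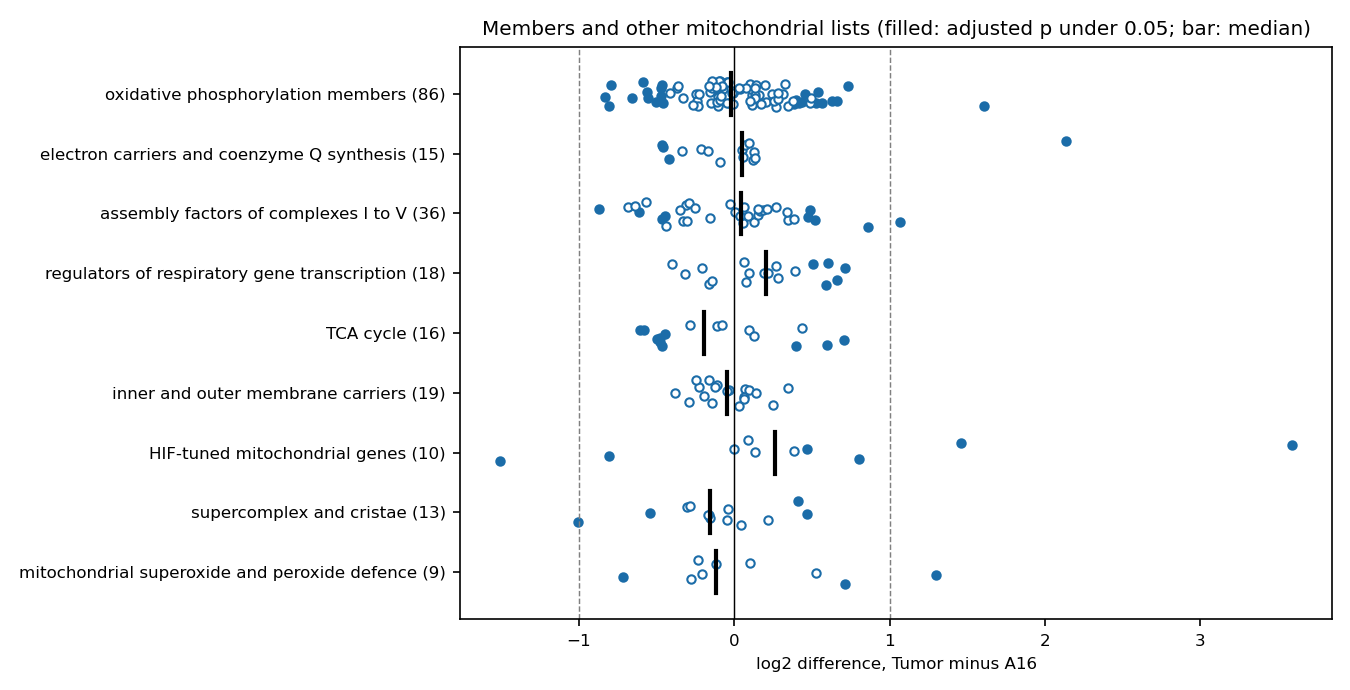
Each point is the log2 RMA difference, Tumor minus A16, of 1 gene, for the 86 members (top row) and for 8 other mitochondrial lists with the number measured in brackets; filled points have an adjusted p under 0.05, bars mark medians and dashed lines 2-fold. The members lie between -0.83 and 1.61 around a median of -0.02, and single genes of other lists reach further, up to Egln3 at 3.59.

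Leaving out replicates bore on most single calls. Cox7b2, Cox5a, Atp5f1d and Ndufaf3 passed under each of 11 alternatives in limma, and none of the 24 members that passed changed sign under any of them. The methods' t-test, not among these 11, kept none of the 24 after adjustment. It put 23 of the 86 members under an unadjusted p of 0.05, beside 8839 of 31042 probe sets. Without Tumor replicate 1, 5.81% of the members passed, beside 18.4% of all probe sets, and 5 of the 24 were kept. Without Tumor replicate 2, 9.30% passed, beside 20.6% of all probe sets, and 8 of the 24 were kept.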

How the data were processed

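Expression was measured on 6 arrays of F111 cells, 3 of A16 and 3 of Tumor. The authors adjusted the background of the scans and normalised them, as their methods state. RMA and PLIER are named in the submitters' processing notes with versions not given in the sources used here. Values were deposited as array intensity on a linear scale, and log2 was taken in this work. Of 31099 probe sets, 57 array controls were set aside and 31042 were tested, of which 20826 had 1 gene symbol, 436 several and 9780 none. The RefSeq table of GRCr8 held all 86 members, matched through Entrez numbers. Tumor was compared with A16 in limma 3.58.1 under R 4.3.3 by two-sided moderated tests (functions lmFit and eBayes), and p was adjusted across the tested probe sets after Benjamini and Hochberg, with technical replicate 2 averaged with replicate 1 on the log2 scale, since these carry the technical numbers. The labels give technical replicate 2 no biological number. No filter on dim probe sets was set, detection calls were not used here, and the number of arrays limits the precision. The fit was tested on simulated data.

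The members and the 14 gene lists were chosen with earlier results of these data known, so that no list is independent support. Named by rule were members that passed at 2-fold, up to 3 rises and 3 falls per complex that passed, core subunits of complexes II and V, Uqcrfs1, isoform pairs, assembly factors, the inhibitor, the brightest member of each complex and up to 4 genes that passed per list. The other members, and the list genes Esrra, Pdhx, Nrf1, Gabpa, Tfam, Ppargc1a, Vim, Ptprc, Myh1 and Ucp1, were named after their values were seen. Alternatives were PLIER values, a gene's probe sets averaged, technical replicate 2 left out or as a replicate of its own, a replicate block, a filter above the 30th percentile, arrays centred on their medians, each replicate left out, and the methods' t-test. Scripts used Python 3.11.15 with pandas 2.3.3 and matplotlib 3.10.9.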

Additional observations from a re-analysis of the deposited data

How the results depend on the processing

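The counts of 12 rises and 12 falls among the members depended on which replicates were used. Leaving out each replicate in turn gave 2 to 19 rises, 3 to 12 falls, 1 rise and 0 falls of at least 2-fold. With the lone replicate of a group assumed to vary like the other group, 2 rises and 3 falls were left without Tumor replicate 1, 4 and 4 without Tumor replicate 2, and 19 and 11 without A16 replicate 1. With technical replicate 2 as a replicate of its own 20 members fell. PLIER gave 1 fall of at least 2-fold. The methods' t-test gave 0 rises, 0 falls and 0 rises of at least 2-fold after Benjamini-Hochberg adjustment, with 15 of 31042 probe sets passing at any fold. At the study's threshold, an unadjusted p under 0.05 and 2-fold, it gave 1 member higher and 0 lower, beside 1607 and 1493 of 31042 probe sets. Replicate numbers were not taken to pair the arrays, since there were only 2 per group and the deviations of replicate 1 correlated at 0.12 between the groups. A replicate block gave 15 rises and 13 falls (32.6% of members, beside 35.9% of all probe sets) and kept all 24 calls. Medians moved with single settings. Leaving out each replicate gave -0.084 to 0.10 for all members, -0.15 to 0.076 for complex I, -0.23 to -0.14 for complex II, -0.20 to 0.019 for complex III, 0.085 to 0.19 for complex IV and -0.089 to 0.042 for complex V, so that the sign of 4 of these 6 medians turned. The complex IV median was 0.31 with PLIER and 0.19 without isoforms and the pseudogene, and that of complex V was 0.019 with the mean of all probe sets and 0.016 with technical replicate 2 left out. The cause was not tested. The filter on dim probe sets and the centring of arrays changed none of the 24 calls, and no alternative reversed one.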
